A study of Mus musculus with 2 samples.

Results

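Wnt ligand genes were compared between the telencephalon of H2AZcKO mouse embryos, a conditional knockout of the histone variant H2A.Z, and of H2AZfl/fl embryos, whose floxed allele can be deleted but was not. Members were the 8 genes Wnt2b, Wnt3, Wnt3a, Wnt5a, Wnt5b, Wnt7a, Wnt7b and Wnt8b, chosen by symbol, of 19202 genes in the deposited table. The labels name both groups as C57BL/6 brain tissue of the telencephalon at embryonic day 12, while the protocol speaks of cerebral cortex. Neither the Cre driver nor the stage of deletion is given in the sources used here. The design text mentions triplicate sequencing, whereas the table held a single count column for each genotype, referred to below as a library; whether it pools replicates is not stated. The control column is headed WT and was taken as H2AZfl/fl, the only other genotype of the series. Every difference therefore has no replicate check, no test of the genotype was made, and intervals are exact 95% intervals that cover counting error only.

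Wnt ligands are secreted glycoproteins that carry a lipid added by Porcn and are carried to the cell surface by Wls. In the canonical pathway they bind Frizzled receptors with Lrp5 or Lrp6, which stabilises beta-catenin (Ctnnb1) so that it can act with TCF/LEF factors on target genes such as Axin2. In the embryonic telencephalon Wnt2b, Wnt3a, Wnt5a and Wnt8b are known from the cortical hem and dorsal midline, the signalling centre that induces the hippocampus, whereas Wnt7a and Wnt7b are known from the wall of the cortex, where the ventricular zone holds the dividing progenitors. Wnt3 and Wnt5b were put in neither group.

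The libraries held 8839840 counts in the H2AZcKO and 8891198 in the H2AZfl/fl. H2afz, the targeted gene, was at 191 CPM (counts per 1000000 counts of the library after its total was adjusted by the TMM factor) against 289 CPM, a ratio of 0.661 (0.621 to 0.703). The counts cover the whole gene, so they do not measure the deleted part alone. Emx1, a defining transcription factor of the dorsal telencephalon, was at 135 and 117 CPM. The libraries also differed in sex-linked transcripts, with Xist at 732 CPM in the H2AZcKO and 22.2 CPM in the H2AZfl/fl. The Y-linked Ddx3y was at 0 and 27.6 CPM. The sex of the embryos thus differed between the libraries, and genotype and sex cannot be told apart in any ratio given here.

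All 8 ligand genes were detected in both libraries, and their sum, mostly Wnt7b, differed little between the libraries. Together they held 2390 counts in the H2AZcKO and 2553 in the H2AZfl/fl, a ratio of 0.969 (0.916 to 1.02) after scaling. The ratio lay below 1 for 6 genes and above 1 for 2, Wnt5b and Wnt7a, and the interval of each of the 8 ratios included 1. For the scarce ligands the intervals were too wide to bound a difference closely, such as 0.164 to 3.85 for Wnt3a. Over the 14586 tested genes, those with at least 1 CPM in either library, the interval lay wholly below 1 for 11.2% and wholly above 1 for 12.6%. The direction of Wnt7a turned when the libraries were scaled by total count, to a log2 ratio of -0.00827.

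The stretch before the start of transcription is shown for Wnt8b of the dorsal midline and Wnt7a of the ventricular zone, since H2A.Z is known to occupy nucleosomes beside start sites. This pair shows start sites with few and with many CpG. It does not stand for the 2 groups, since Wnt2b and Wnt3a of the dorsal midline had 43 and 45 CpG in the longer windows described below. The 200 bases upstream of each RefSeq start site (GRCm38.p6) run 5′ to 3′ on the gene's own strand, with CpG dinucleotides in capitals. The Wnt8b window is chr19:44493272-44493471 on the plus strand and the Wnt7a window chr6:91411354-91411553 on the minus strand.
Wnt8b: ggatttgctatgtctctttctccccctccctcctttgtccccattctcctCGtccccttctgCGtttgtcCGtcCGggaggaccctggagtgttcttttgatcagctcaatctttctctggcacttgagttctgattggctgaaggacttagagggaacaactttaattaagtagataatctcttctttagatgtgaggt
Wnt7a: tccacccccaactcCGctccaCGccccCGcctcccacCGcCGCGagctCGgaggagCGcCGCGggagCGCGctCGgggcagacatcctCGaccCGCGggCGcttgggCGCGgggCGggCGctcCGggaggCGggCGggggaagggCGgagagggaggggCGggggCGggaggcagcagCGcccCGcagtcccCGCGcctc

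The printed Wnt8b sequence held 4 CpG dinucleotides and that of Wnt7a 31. Over the full RefSeq windows, from 250 bases before to 50 bases after the start, Wnt8b had 6 CpG and Wnt7a 42, where the median of 32851 windows of all genes was 7. Windows were found for 6 of the 8 members. Wnt2b had 43 CpG, Wnt3a 45, Wnt3 24, and the 3 start sites of Wnt5b 47, 4 and 7. The TCF/LEF core motif CTTTGAT, searched on both strands, was in 1 of these 8 windows, that of the third Wnt5b start site, and in 3.73% of all windows. The TATA box TATAAA was in none of the 8 and in 13.6% of all. No deposited measurement of H2A.Z at these sites was used here. The ratio of H2AZcKO over H2AZfl/fl was 0.806 for Wnt8b with 6 CpG, 0.591 for Wnt2b with 43 and 0.609 for Wnt3 with 24. It was 0.828 for Wnt3a with 45, 1.02 for Wnt7a with 42, and 1.22 for Wnt5b with its 3 start sites. No order of the ratios can be read from these values, since each interval included 1. A link between CpG content and the ratios was not tested.

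Among the members the ventricular zone ligands were far the more abundant. On the scale of RPKM, the CPM divided by the kilobases of exon, which allows levels of different genes to be compared, Wnt7b stood at 39.4 in the H2AZcKO and 40.8 in the H2AZfl/fl. Wnt7a followed at 15.4 and 15.1 RPKM, so Wnt7b was 2.55 and 2.70 times the level of Wnt7a. In the H2AZfl/fl, 93.2% of all genes in the table had a lower RPKM than Wnt7b and 79.7% a lower one than Wnt7a. Next came Wnt5b, Wnt5a and Wnt8b, whose RPKM lay between 1.75 and 2.55 in the H2AZcKO and between 2.07 and 2.17 in the H2AZfl/fl. The order of these 3 differed between the libraries, and the intervals of neighbours among them overlapped in both. Wnt3 was below them at 0.746 and 1.23 RPKM, with an interval that lay apart from all 3 in the H2AZcKO but overlapped those of Wnt5b and Wnt8b in the H2AZfl/fl. Wnt2b (0.218 and 0.370 RPKM) and Wnt3a (0.166 and 0.201 RPKM) came last, with overlapping intervals. Exon lengths join all annotated exons of a gene, and which transcripts were made is not known from the counts.

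**Figure D1:**
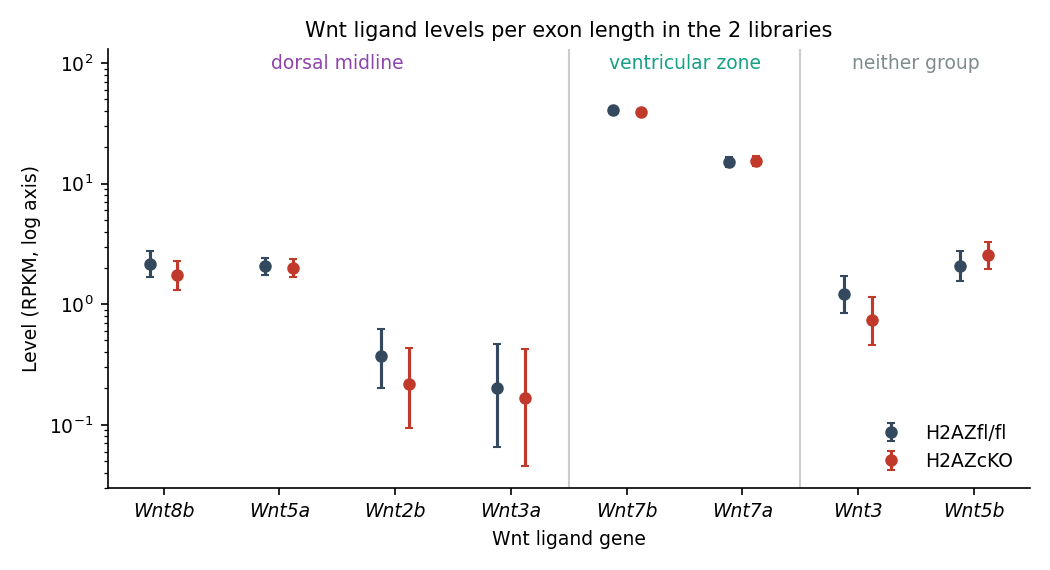
Level of each Wnt ligand gene in RPKM on a log axis, in the H2AZfl/fl (dark) and the H2AZcKO (red), 1 library each. Points are the values and bars the exact 95% Poisson intervals of the counts; Wnt7b at 39.4 and 40.8 RPKM and Wnt7a at 15.4 and 15.1 stand above the other 6 genes, and the bars of both libraries overlap for every gene.

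Of the dorsal midline ligands Wnt5a had the most counts and Wnt3a the fewest. Wnt5a, a ligand best known for signalling outside the canonical pathway, had 136 counts in the H2AZcKO and 146 in the H2AZfl/fl, or 15.6 and 16.2 CPM, a ratio of 0.964 (0.757 to 1.23). The libraries were level for this gene, and it supplied most of the counts of its group. Wnt8b, an early marker of the hem and the hippocampal field, had 53 counts against 68, or 6.08 and 7.54 CPM. Its ratio was 0.806 (0.552 to 1.17), so the lower value of the H2AZcKO was within counting error.

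Wnt2b and Wnt3a were near the limit of detection. Wnt2b, a hem ligand, had 8 counts against 14, a ratio of 0.591 (0.215 to 1.51). Wnt3a, the hem ligand needed for the hippocampus to form, had 4 counts against 5, a ratio of 0.828 (0.164 to 3.85). The depth of these libraries thus leaves room for a several-fold difference in Wnt3a in either direction. Wnt3a was also the only member under 1 CPM in both libraries, at 0.459 and 0.554 CPM, and was left out of the counts over tested genes.

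For the ventricular zone ligands the counts were high enough to bound a difference closely. Wnt7b, a canonical ligand of the forebrain and its vessels, had 1683 counts in the H2AZcKO and 1804 in the H2AZfl/fl, or 193 and 200.1 CPM. Its ratio of 0.965 (0.903 to 1.03) is the most closely bounded of the 8. Wnt7a, its close relative, had 427 counts against 432, or 49.0 and 47.9 CPM, a ratio of 1.02 (0.892 to 1.17). Both genes were level between the libraries.

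Of the members in neither group, Wnt3, a canonical ligand closely related to Wnt3a, had 20 counts in the H2AZcKO and 34 in the H2AZfl/fl, or 2.29 and 3.77 CPM. Its ratio was 0.609 (0.332 to 1.09), and its log2 ratio on log2(CPM + 1), -0.53, was the lowest of the 7 tested members. Wnt5b, a relative of Wnt5a, had 59 counts against 50, or 6.77 and 5.54 CPM, a ratio of 1.22 (0.823 to 1.82). It was the member with the highest ratio.

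**Figure D2:**
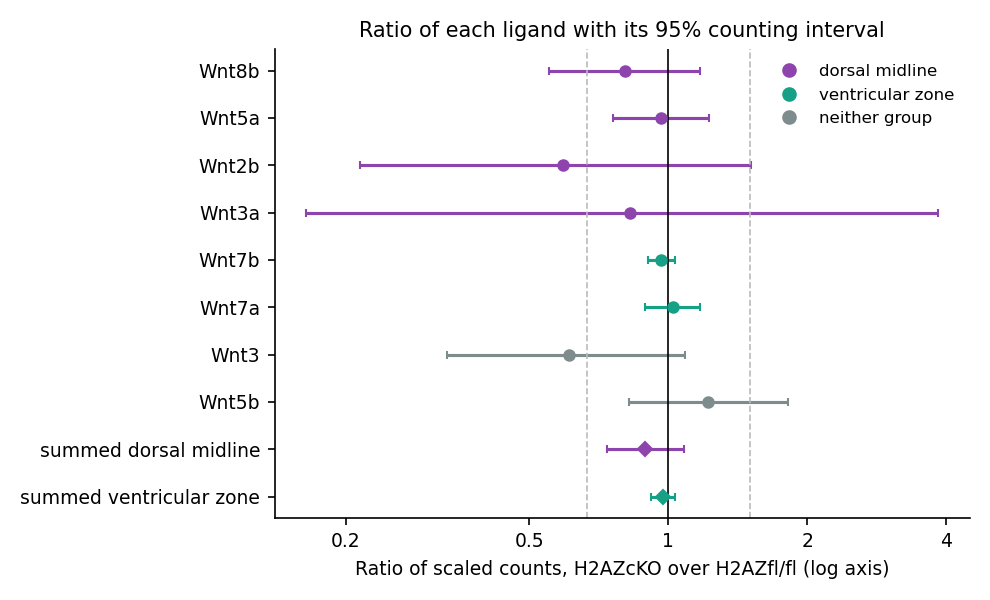
Ratio of scaled counts, H2AZcKO over H2AZfl/fl, on a log axis for the 8 Wnt ligand genes (circles) and for the summed dorsal midline and ventricular zone ligands (diamonds), with exact 95% binomial intervals. The solid line marks 1 and the dashed lines 1.5-fold in either direction; every interval crosses the line at 1, and that of Wnt3a, with 4 and 5 counts, runs from 0.164 to 3.85.

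Summed, the 4 dorsal midline ligands had 201 counts in the H2AZcKO and 233 in the H2AZfl/fl, a ratio of 0.892 (0.735 to 1.08). The ventricular zone ligands had 2110 against 2236, a ratio of 0.976 (0.919 to 1.04). The dorsal midline ratio over the ventricular zone ratio was 0.914 (0.746 to 1.12), so the groups did not differ beyond counting error. Dorsal midline ligands took 8.41% (7.33 to 9.60) of the members' counts in the H2AZcKO and 9.13% (8.04 to 10.3) in the H2AZfl/fl. Wnt7b alone took 70.4% (68.5 to 72.2) and 70.7% (68.9 to 72.4). The dorsal midline sum was mostly Wnt5a: without it the other 3 genes held 65 counts against 87, a ratio of 0.773 (0.552 to 1.08). In bulk tissue, fewer cells of a type and less RNA per cell cannot be told apart.

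No member reached 1.5-fold on the log2(CPM + 1) scale, which damps the ratios of low genes, in either direction. Over all tested genes 3.03% were at least 1.5-fold lower and 1.92% at least 1.5-fold higher. Without the added 1 CPM, Wnt2b and Wnt3 were past 1.5-fold lower and no member was higher, where 5.86% and 4.40% of all tested genes were. Wnt2b, at 0.918 and 1.55 CPM, reached 1 CPM in the H2AZfl/fl alone, so as a tested gene it could only be lower. The median log2 ratio of the 7 tested members was -0.05, against 0.00603 over all tested genes. In the authors' deposited table none of the 8 members is marked as significant.

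**Figure D3:**
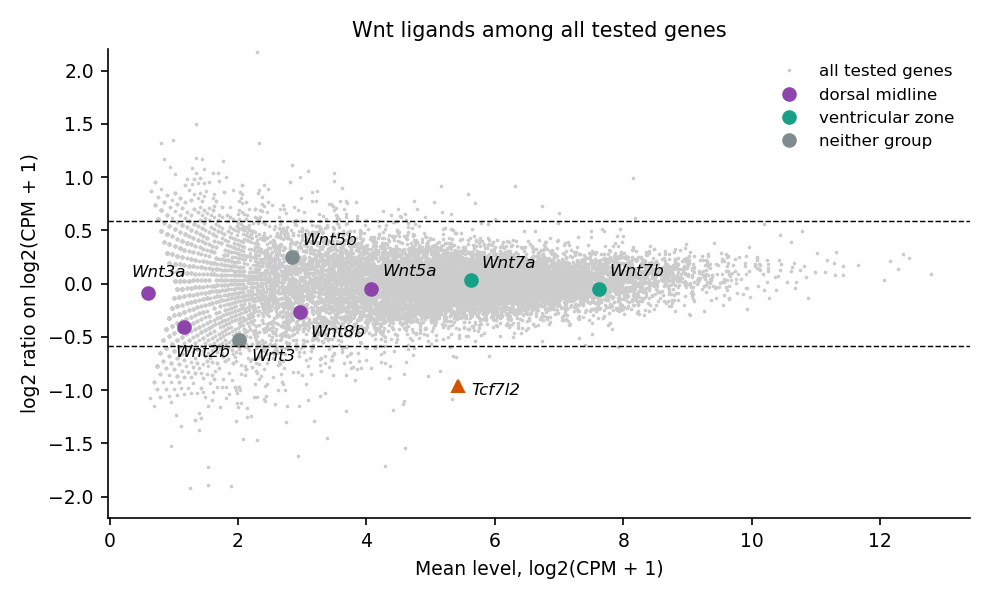
Log2 ratio on log2(CPM + 1), H2AZcKO over H2AZfl/fl, against the mean level for all 14586 tested genes (grey), the 8 Wnt ligand genes (coloured by group) and Tcf7l2 (triangle); dashed lines mark 1.5-fold and genes past the axis limits are not drawn. The ligands lie inside the dashed lines, whereas Tcf7l2 lies below them at -0.97.

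Other Wnt genes were scarce. Of 19 mouse Wnt genes, 14 were in the table, and Wnt1, Wnt2, Wnt6, Wnt8a and Wnt16 were not analysed here. Wnt4 had 10 counts in the H2AZcKO and 21 in the H2AZfl/fl, a ratio of 0.493 (0.207 to 1.09). Wnt10a had 5 against 11 (0.470, 0.128 to 1.47). Wnt9a had 7 against 3 (2.41, 0.551 to 14.5). All 3 intervals included 1. A pair of members have a Wnt neighbour on chromosome 11 that is read from the opposite strand: Wnt3a lies 16.2 kb from Wnt9a and Wnt3 24.3 kb from Wnt9b, which had 3 and 2 counts and is named for its position after its values were seen.

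Positions in the deposited table match GRCm38 rather than the mm9 build of the submitters' processing notes. Wnt7b (ENSMUSG00000022382) lies on chromosome 15 at 85535439 to 85581821, Wnt7a (ENSMUSG00000030093) on chromosome 6 at 91363981 to 91411363, Wnt5a (ENSMUSG00000021994) on chromosome 14 at 28504750 to 28527447 and Wnt8b (ENSMUSG00000036961) on chromosome 19 at 44493472 to 44514273. Wnt5b (ENSMUSG00000030170) lies on chromosome 6 at 119432531 to 119544347 and Wnt2b (ENSMUSG00000027840) on chromosome 3 at 104945272 to 104961921. Chromosome 11 holds Wnt3 (ENSMUSG00000000125) at 103774150 to 103817957 and Wnt3a (ENSMUSG00000009900) at 59248033 to 59290752. Exons of Wnt7b and Wnt5a overlap the antisense genes AU022754 (22 and 29 counts) and Gm2670 (4 and 5 counts), and without strand the reads of such a pair cannot be told apart.

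Genes that make and export Wnt proteins were close between the libraries. Porcn, the acyltransferase of Wnt proteins, which is X-linked, was at 59.1 and 59.3 CPM, a ratio of 0.996 (0.881 to 1.13). Wls, their carrier, had 114 counts and 143 counts, and its ratio was 0.825 (0.639 to 1.06). Of 6 tested genes of the secretion list, 3 were below 0 and 3 above. Tmed2, a cargo receptor of the early secretory pathway, stood at 0.934 (0.864 to 1.01). Snx3, a retromer-linked sorting nexin that returns Wls, was the only one with an interval off 1, at 1.14 (1.06 to 1.23).

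Among 17 tested receptor and co-receptor genes, 5 had an interval wholly below 1 and none wholly above 1, where 11.2% and 12.6% of all tested genes did. They were 3 Frizzled genes of low or moderate level, the canonical co-receptor Lrp6 (0.851, 0.764 to 0.948) and the polarity receptor Ptk7 (0.873, 0.786 to 0.970). Fzd3, a receptor known for axon tracts and planar polarity, had 119 counts against 213, a ratio of 0.578 (0.458 to 0.727). Fzd5 had 22 counts against 40 (0.569, 0.322 to 0.981) and Fzd10 16 against 34 (0.487, 0.251 to 0.906). These Frizzled genes were also the 3 of the 17 at least 1.5-fold lower, beside 3.03% of all tested genes, and none was as much higher. The median of the 17 was -0.05, with 10 below 0 and 7 above. Adgra2 and Reck, the co-receptors that Wnt7a and Wnt7b use on brain vessels, were chosen for that role after their values were seen. Adgra2 stood at 0.932 (0.670 to 1.30) and Reck at 0.884 (0.693 to 1.13), both with intervals that included 1.

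Secreted modulators differed in both directions. Of 12 tested, 7 were below 0 and 5 above, with a median log2 ratio of -0.12. None was past 1.5-fold on log2(CPM + 1). In the ratio of scaled counts 3 were at least 1.5-fold lower and none higher, against 5.86% and 4.40% of all tested genes. The 3 were Trabd2b, Rspo2 and Dkk2, named for that count after their values were seen. They had 19, 34 and 19 counts in all and intervals that included 1. Trabd2b and Dkk2 reached 1 CPM in the H2AZfl/fl alone, so as tested genes they could only be lower. Sfrp2, a secreted Frizzled-related antagonist, was higher at 362 counts against 295 (1.27, 1.09 to 1.49). Draxin, a secreted guidance protein that antagonises canonical Wnt signalling, was lower at 1418 against 1642 (0.893, 0.832 to 0.960). Dkk3 stood at 0.862 (0.681 to 1.09). The 4 tested genes of receptor turnover had a median of -0.19, with Lgr4, an R-spondin receptor, at 0.854 (0.607 to 1.20) and Znrf3, a ligase that removes Frizzled, at 0.882 (0.690 to 1.13). Kremen1 had 180 counts against 184.

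Of 28 tested genes of canonical transduction, the steps from receptor to TCF/LEF factors, 23 were below 0 on the log2 scale, against 49.0% of all tested genes, with a median of -0.09. Their interval lay wholly below 1 for 8 and wholly above 1 for 2, against 11.2% and 12.6% of all tested genes. Intervals narrow as counts rise, and some of these genes had high counts, such as Ctnnb1 with 8389 and 8924. Ctnnb1 was at 962 and 990 CPM, a ratio of 0.973 (0.944 to 1.0). Tcf7l2, a TCF factor that is also a marker of the thalamus, was the only one past 1.5-fold, at 246 counts against 506, a ratio of 0.503 (0.430 to 0.587), and is marked as significant in the authors' deposited table. Amer1, an X-linked scaffold of the pathway, stood at 0.741 (0.624 to 0.878) and Dvl3, a Dishevelled, at 0.748 (0.675 to 0.830). Lef1 was at 0.918 (0.747 to 1.13).

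Genes commonly used as readouts of canonical signalling differed in direction. Axin2, the feedback inhibitor, had 378 counts against 412, a ratio of 0.949 (0.823 to 1.09). Of 13 tested target genes 8 were below 0 and 5 above, none past 1.5-fold, with a median of -0.07. Ccnd1 and Myc, which many other inputs also control, were higher, at 1.27 (1.16 to 1.39) for Ccnd1 and 355 counts against 294 for Myc, whose interval ran from 1.07 to 1.46. Tcf7 stood at 0.808 (0.561 to 1.16). The 14 planar polarity genes had a median of -0.06 with 8 below 0. The interval lay wholly below 1 for 6 of them and wholly above 1 for none, against 11.2% and 12.6% of all tested genes. Intervals narrow as counts rise, and some of these genes had high counts, such as Celsr2 with 3208 and 3498. The 6 were Fzd3, Ptk7, Vangl2 (0.841, 0.790 to 0.895), Celsr1 (0.871, 0.818 to 0.928), Daam1 (0.901, 0.817 to 0.993) and Celsr2 (0.949, 0.904 to 0.996). Prickle2 stood at 0.798 (0.621 to 1.02) and Vangl1 at 1.28 (0.794 to 2.07).

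**Figure D4:**
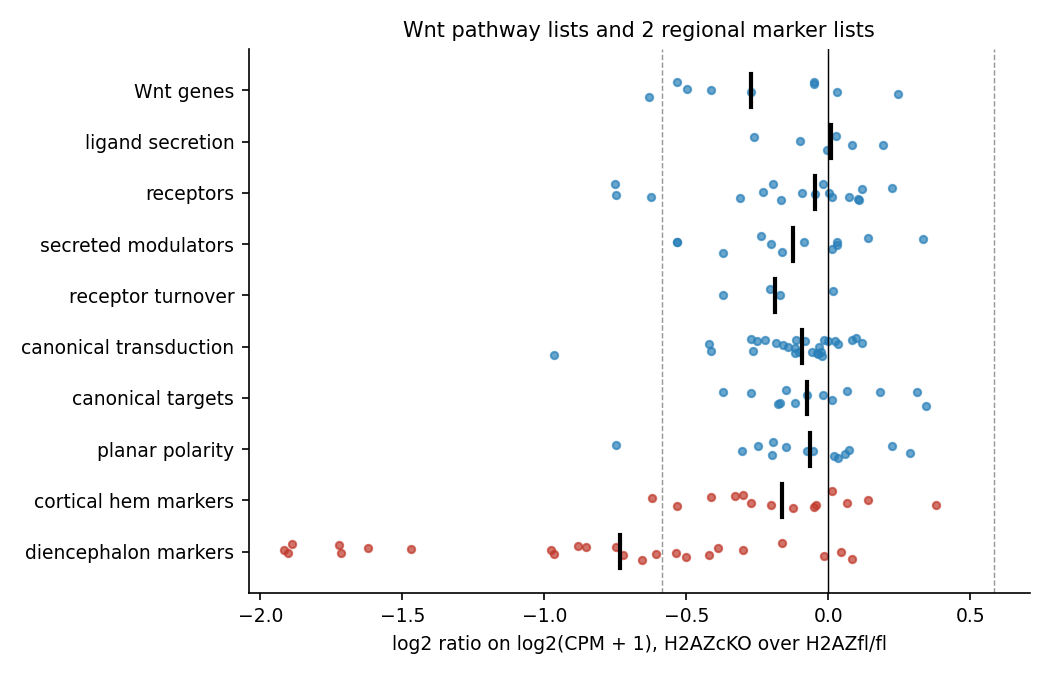
Log2 ratio on log2(CPM + 1) of each tested gene in 8 Wnt lists (blue) and 2 regional marker lists (red), with the list's median as a black bar and dashed lines at 1.5-fold; the Wnt gene list holds the tested members and Wnt4 and Wnt10a, and vertical scatter has no meaning. Medians of the Wnt pathway lists lie between -0.27 and 0.01, the lowest that of the Wnt genes, which was -0.05 with no floor on the level or with a floor of 5 CPM, and that of the diencephalon markers at -0.74.

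Markers of regions that could supply Wnt ligand RNA differed between the libraries. The diencephalon and hypothalamus adjoin the telencephalon, and Wnt3, Wnt8b and Wnt7b are also known to be expressed there. Of 24 tested markers of these regions, 22 were below 0 and 15 at least 1.5-fold lower, with a median of -0.74. Over all tested genes the shares were 49.0% and 3.03%. The summed level of the list was 380 CPM in the H2AZcKO and 490 CPM in the H2AZfl/fl, of which a single gene held 186 and 181 CPM. The defining markers Nkx2-4 and Rax, named after their values were seen, were at 0 in the H2AZcKO, against 25 and 9 counts. Rax was under 1 CPM in both libraries and not among the 24. Nkx2-4, like others of the 24, reached 1 CPM in the H2AZfl/fl alone. As tested genes these could only be lower. Otp, Shox2 and Sim1 stood at 0.280 (0.213 to 0.366), 0.261 (0.160 to 0.412) and 0.259 (0.133 to 0.471). Tcf7l2 is itself on that list. The part of this difference in the ratios of Wnt3, Wnt8b, Tcf7l2 and the Frizzled genes was not tested.

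Markers of the cortical hem and dorsal midline, a list of 16 genes in the table that holds Wnt2b, Wnt3a, Wnt5a and Wnt8b, summed to 390 CPM in the H2AZcKO and 426 CPM in the H2AZfl/fl. A single gene held 218 and 238 CPM of that sum. Of 14 tested 10 were below 0, with a median of -0.16, and none was at 0 in either library. On log2(CPM + 1) 1 was at least 1.5-fold lower, against 3.03% of all tested genes. It had 7 counts against 16 and an interval that included 1. In the ratio of scaled counts 4 were, Wnt2b among them, against 5.86%. None of the 14 was at least 1.5-fold higher by either measure. Some of the lower genes, Wnt2b among them, reached 1 CPM in the H2AZfl/fl alone. As tested genes these could only be lower, so their number has no bearing on direction. Nfic stood at 0.793 (0.697 to 0.901) and Id3 at 1.33 (1.02 to 1.73). Choroid plexus markers had a median of -0.34 over 7 tested genes of 11, at a sum of 44.2 and 51.6 CPM. Ttr, the defining marker, had 9 counts against 28 (0.333, 0.138 to 0.725) and Aqp1 18 against 10 (1.86, 0.815 to 4.52), both named after their values were seen. Otx2 stood at 0.778 (0.607 to 0.994), Enpp2 at 0.724 (0.476 to 1.09) and Foxj1 at 1.05 (0.842 to 1.30). The 15 ventricular progenitor markers summed to 3914 and 3612 CPM with a median of 0.10, and 13 of them were above 0. Among these were Hes5 (1.62, 1.37 to 1.91), Hes1 (1.34, 1.16 to 1.54) and Sox3 (1.16, 1.07 to 1.26). Neuronal markers summed to 7344 and 7188 CPM with a median of 0.04 over 13. With the trend on length, GC content and level removed, the neuronal median turned to -0.05 and the progenitor median was 0.04, and the log2 ratio of Sox3 turned from 0.21 to -0.00477. The part of these cell types in the ligand ratios was not tested.

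With 1 library per genotype the pattern of a gene is a single ratio. Among 198 genes of the pathway and marker lists with at least 50 counts in all, those whose log2 ratio lay closest to that of the summed dorsal midline ligands, -0.16, were Tcf7l1 at 0.893 (0.794 to 1.005), Draxin at 0.893 (0.832 to 0.960) and Six3 at 0.892 (0.794 to 1.001).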

How the data were processed

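RNA sequencing libraries of 1 H2AZcKO and 1 H2AZfl/fl sample were used. The deposited counts are whole reads per Ensembl gene; the submitters' processing notes name Bowtie2 2.2.3, TopHat2 2.0.12, HTSeq 0.6.0 and mm9, with no role or order. The authors' CPM, fold change (a ratio), log2 fold change, p-value and adjusted p-value were deposited beside them, from a test not given in the sources used here; only the authors' mark of significance is printed. Strand and the treatment of reads with several matches are not given there either, so reads of named genes whose exons overlap another gene (among them Adgra2, Axin2, Ccnd1, Ctnnb1, Ebf3, Egfl7, Enpp2, Fzd5, Hes5, Hopx, Lef1, Lhx5, Nfic, Otx2, Sfrp2, Shox2, Six3, Tcf7l1 and Vangl1) may be shared with it.

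Of 19202 genes 19112 matched a symbol. Positions overlapped the same gene in GENCODE M21 (GRCm38) for 99.95%, and exon lengths came from M21. The TMM factors were 0.986 for the H2AZcKO and 1.01 for the H2AZfl/fl (edgeR 4.0.16, R 4.3.3). The log2 ratio was taken on log2(CPM + 1), for genes with 1 CPM or more in the higher library. Ratios have Clopper-Pearson intervals at 95%, levels have Poisson intervals, and the ratio of ratios has an exact conditional interval, all for counting error only, as PCR duplicates cannot be recognised without molecular identifiers. Scripts were tested on simulated data. Other steps ran in Python 3.11.15 (scipy 1.17.1, numpy 2.4.6, matplotlib 3.10.9, pandas 2.3.3), and DESeq2 1.42.0 gave alternative size factors. Promoter sequences are RefSeq's (GRCm38.p6).

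Members and lists were chosen with earlier results of these data known. Named are the members; other Wnt genes with 10 or more summed counts; up to 3 genes per list with the largest absolute log2 ratio at 50 or more summed counts; Axin2, Lef1, Ctnnb1, Wls and Porcn; and the 3 genes closest in ratio to the summed dorsal midline ligands. Alternatives were total count or DESeq2 scaling, pseudocounts of 0.1 and 5 CPM, no floor or 5 CPM, sizes smaller and larger than 1.5-fold, other groupings of the ligands, the autosomes alone, and, chosen after seeing the data, no pseudocount and removal of a cubic trend on exon length, transcript GC and level, fitted jointly. A gene of a marker list is not reported here, while the counts and median of the list include it.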

Additional observations from a re-analysis of the deposited data

How the results depend on the processing

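No member was at least 1.5-fold higher under any setting tried. The number at least 1.5-fold lower, 0 as reported, was 2 with a pseudocount of 0.1 CPM, 2 with the smaller fold size tried and 2 with no pseudocount, and 0 under the other settings; Wnt2b and Wnt3 have few reads, and a pseudocount of 1 CPM shrinks their ratios by construction. Of 39 recomputed log2 ratios of single members none left its counting interval and 3 changed sign: Wnt7a with total count scaling (-0.00827) and with the joint trend of length, GC content and level removed (-0.00498), and Wnt5a with that trend removed (0.0173). The summed dorsal midline ratio ran from 0.773 to 0.928 and the ventricular zone ratio from 0.949 to 1.02, inside their counting intervals. Of 64 recomputed medians of the 8 Wnt lists 5 changed sign: that of the secretion list under 4 settings and that of the secreted modulators under 1, a floor of 5 CPM (0.01). Scaling moved the median of all genes by at most 0.0384. No paired analysis was possible because each genotype had 1 column. The Wnt gene list had a median of -0.27 as reported and of -0.05 with no floor or with a floor of 5 CPM. Depth leaves Wnt3a and Wnt2b with the widest intervals of the members; 3 counts correspond to 0.344 CPM in the H2AZcKO and 0.333 CPM in the H2AZfl/fl.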

Other observations

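Lists of cells with less bearing on the ligands gave these values. Ventral telencephalic markers had a median log2 ratio of 0.37 over 19 genes, with 15 above 0, led by Lhx8 at a ratio of 1.93 (1.63 to 2.29), Sst at 1.67 (1.52 to 1.83) and Nkx2-1 at 1.58 (1.45 to 1.73). Dorsal telencephalic markers had a median of 0.05 over 15, which turned to -0.02 with the trend on length, GC content and level removed, with Hopx at 1.96 (1.37 to 2.84), Dmrta2 at 1.27 (1.15 to 1.41) and Dmrt3 at 0.821 (0.672 to 1.0). Cajal-Retzius markers, of neurons that partly arise from the cortical hem, had a median of -0.18 over 9 genes and of -0.05 with the trend of length, GC content and level removed; Lhx1, Lhx5 and Ebf3 stood at 0.669 (0.493 to 0.902), 0.685 (0.550 to 0.851) and 0.749 (0.623 to 0.90). Endothelial markers, of the vessels on which Wnt7a and Wnt7b act, had a median of -0.05 over 12 genes, and none had an interval off 1; Tek stood at 0.80 (0.519 to 1.23), Tie1 at 0.835 (0.664 to 1.05) and Egfl7 at 0.880 (0.684 to 1.13). Of the neuronal markers Map2 stood at 0.905 (0.875 to 0.935), Myt1l at 0.807 (0.735 to 0.885) and Gap43 at 1.14 (1.08 to 1.19). Meningeal and mesenchymal markers had a median of -0.26 over 10 tested genes, with Lama1 at 0.742 (0.608 to 0.905), Col1a2 at 0.718 (0.413 to 1.23) and Crabp2 at 1.33 (1.10 to 1.61). Erythroid markers had a median of 0.81 over 8, with Hbb-y at 1.99 (1.87 to 2.11), Hbb-bs at 1.90 (1.70 to 2.13) and Hba-a1 at 1.82 (1.58 to 2.11), where reads of near-identical globin copies can be split. Microglial markers had a median of 0.48 over 12, with Lyz2 at 3.29 (1.88 to 6.05), P2ry12 at 1.85 (1.10 to 3.19) and C1qa at 1.54 (1.02 to 2.35).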
